A study of Homo sapiens with 10 samples.

Results

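The comparison described here sets the line RNASE1 sg3 against 2 control lines in LS180, an established human colorectal cancer line that secretes mucins. In each of these lines CRISPR interference machinery was stably present, and the guide RNA was what differed: RNASE1 sg3 carried 1 guide against RNASE1, and NTC1 and NTC2 carried non-targeting guides. Each line was represented by 2 libraries, lettered A and B, so that 2 sg3 libraries and 4 NTC libraries were taken from the 10 libraries of the series. The remaining 4 libraries came from lines with other RNASE1 guides, sg1 and sg2, and serve only to show where sg3 differed from them. All lines grew in DMEM with 10% FBS and received no drug. The labels do not state the age or passage of the cultures, or whether A and B were separate cultures. A p-value here therefore weighs a difference only against the spread of these libraries, part of which may be technical. Since sg3 is a single line, an effect of the guide and a property of that line cannot be told apart within this comparison.

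RNASE1 encodes pancreatic-type ribonuclease, a secreted enzyme of the RNase A superfamily that cleaves RNA outside cells and is held inactive inside them by the ribonuclease inhibitor RNH1. CRISPR interference directs a catalytically dead Cas9, usually fused to a repressor domain, to a promoter and lowers transcription without cutting DNA. The title of the series concerns an inhibitory function of RNASE1 within cells. The comparison therefore asks which transcripts were higher or lower in the sg3 line, where RNASE1 was lower.

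On GRCh38 the gene (ENSG00000129538) occupies chromosome 14, minus strand, from 20801228 to 20803278. The promoter windows that RefSeq gives for it on GRCh38.p14 are shown because a CRISPR interference guide acts near a start site; the sg3 guide sequence is not given in the sources used here. Each window runs from 250 bases before to 50 bases after an annotated start, 5′ to 3′ on the minus strand, and capitals mark the letters TATAA. The first window is chr14:20802795-20803094 and the second is chr14:20802315-20802614.
RNASE1 promoter window 1: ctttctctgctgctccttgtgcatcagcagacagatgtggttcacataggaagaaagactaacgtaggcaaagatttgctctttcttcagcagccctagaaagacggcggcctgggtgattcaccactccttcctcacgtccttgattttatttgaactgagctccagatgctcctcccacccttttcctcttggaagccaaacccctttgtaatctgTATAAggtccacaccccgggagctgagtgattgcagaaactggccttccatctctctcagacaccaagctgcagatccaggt
RNASE1 promoter window 2: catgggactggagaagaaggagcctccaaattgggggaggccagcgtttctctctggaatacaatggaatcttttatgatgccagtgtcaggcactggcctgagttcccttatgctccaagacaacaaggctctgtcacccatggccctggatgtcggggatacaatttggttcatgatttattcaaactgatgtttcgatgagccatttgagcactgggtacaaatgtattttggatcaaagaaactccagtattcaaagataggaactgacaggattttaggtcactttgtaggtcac

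Of the 5 RNASE1 transcripts in GENCODE 29, 3 start inside the first window and 1 inside the second. TATAA occurs once in the first window, 32 bases before the start, and not in the second. The same letters occur on the gene's own strand in 14.8% of 35116 promoter windows of this length, and on either strand in 20.4%.

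The libraries of the series held 39026605 to 45050991 expected counts, with 15450 to 15830 genes at 10 counts or more. Defining markers of colorectal epithelium were all 14 tested, and their summed level was 7003 to 8694 CPM (counts scaled to library depth, here by TMM) in NTC and 7227 to 8662 CPM in sg3. Summed fibroblast markers were at 4.00 to 5.24 CPM in NTC and 4.27 to 5.30 CPM in sg3, with 4 of 12, among them COL1A2 and PDGFRA, at 0 in both sg3 libraries. Endothelial markers were at 5.62 to 7.39 and 6.52 to 7.01 CPM, with 5 of 12 at 0, among them PECAM1 and KDR. Leukocyte markers were at 43.3 to 47.4 and 43.7 to 46.0 CPM, with 8 of 14 at 0, among them PTPRC. The most abundant tested members were COL3A1, LUM and PDGFRB (fibroblast), ERG, ENG and ESAM (endothelial), and LYZ, CD68 and CD14 (leukocyte). Markers of embryonic kidney lines, which are commonly used to make virus, were at 84.9 to 89.7 CPM in NTC and 94.2 to 94.7 CPM in sg3, with 3 of 12 at 0; HOXA10, also a gene of other tissues, made up 54.0 CPM of the NTC level. Within that list VGF was at 11.2 CPM in NTC and 13.8 CPM in sg3 and TBX2 at 3.43 and 4.82 CPM, with adjusted p of 0.330 and 0.277, and their part in other differences was not tested. None of the markers of other cell types passed the test between sg3 and NTC.

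RNASE1 itself had the smallest p of all genes tested. The NTC1 libraries A and B held 16.4 and 23.7 CPM of RNASE1, the NTC2 libraries 19.1 and 22.9 CPM, and the sg3 libraries 1.66 and 1.57 CPM. Both sg3 libraries lay far below all 4 NTC libraries. The expected counts behind these levels were 688 to 1086 in NTC and 71 and 66 in sg3. The mean was 20.5 ± 3.43 CPM (SD, n = 4 libraries) in NTC and 1.62 ± 0.060 CPM (SD, n = 2 libraries) in sg3. The log2 fold change was -3.66 (SE 0.12, adjusted p = 1.38e-09 by edgeR's quasi-likelihood test), with a 95% interval of -3.92 to -3.39. That left 7.93% of the control level (95% interval 6.60% to 9.52%). In RNA from whole cultures, fewer cells with the transcript and less of it per cell cannot be told apart. Libraries of letter A alone gave -3.41 and those of letter B alone -3.88, as differences of log2 CPM with a prior count of 0.5.

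RNASE1 was lower than in either control line. The log2 fold change of sg3 was -3.62 (SE 0.14) against NTC1 and -3.70 (SE 0.13) against NTC2, while NTC2 differed from NTC1 by 0.08 (SE 0.10, unadjusted p = 0.443, adjusted p = 0.965). The other guide lines held 1.02 and 1.38 CPM (sg1) and 3.36 and 3.75 CPM (sg2). RNASE1 was lower in sg3 than in sg2 by a log2 difference of -1.13 (SE 0.16, edgeR adjusted p = 0.0469). Against sg1 the difference was 0.44 (SE 0.20, 95% interval 0.02 to 0.86, unadjusted p = 0.0426, adjusted p = 1). The order of the guide lines by RNASE1 level was thus sg1, sg3, sg2, of which only the step from sg3 to sg2 was tested past the threshold.

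Beyond RNASE1, few genes differed. Of 16006 genes tested, 10 passed an adjusted p of 0.05 (0.0625%), 5 higher (0.0312%) and 5 lower (0.0312%) in sg3. The genes higher were SULT1A3, AL163636.2, CTAG2, AP000547.3 and SOD3. The genes lower were RNASE1, AC099329.1, NXF2, GCSHP5 and the MATR3 gene ENSG00000280987. Without adjustment, 1243 genes (7.77%) had a p under 0.05, 716 higher (4.47%) and 527 lower (3.29%). Within each letter sg3 lay on one side of both NTC libraries for all 10 called genes, and for 8 of them no sg3 library overlapped any NTC library; SOD3 and MATR3 were the exceptions. Over all 16006 genes tested, 27.1% lay on one side within each letter (13.9% higher, 13.3% lower) and 9.15% had no overlap of libraries (4.83% higher, 4.32% lower). Genes chosen by a small p separate more often by that choice.

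**Figure D1:**
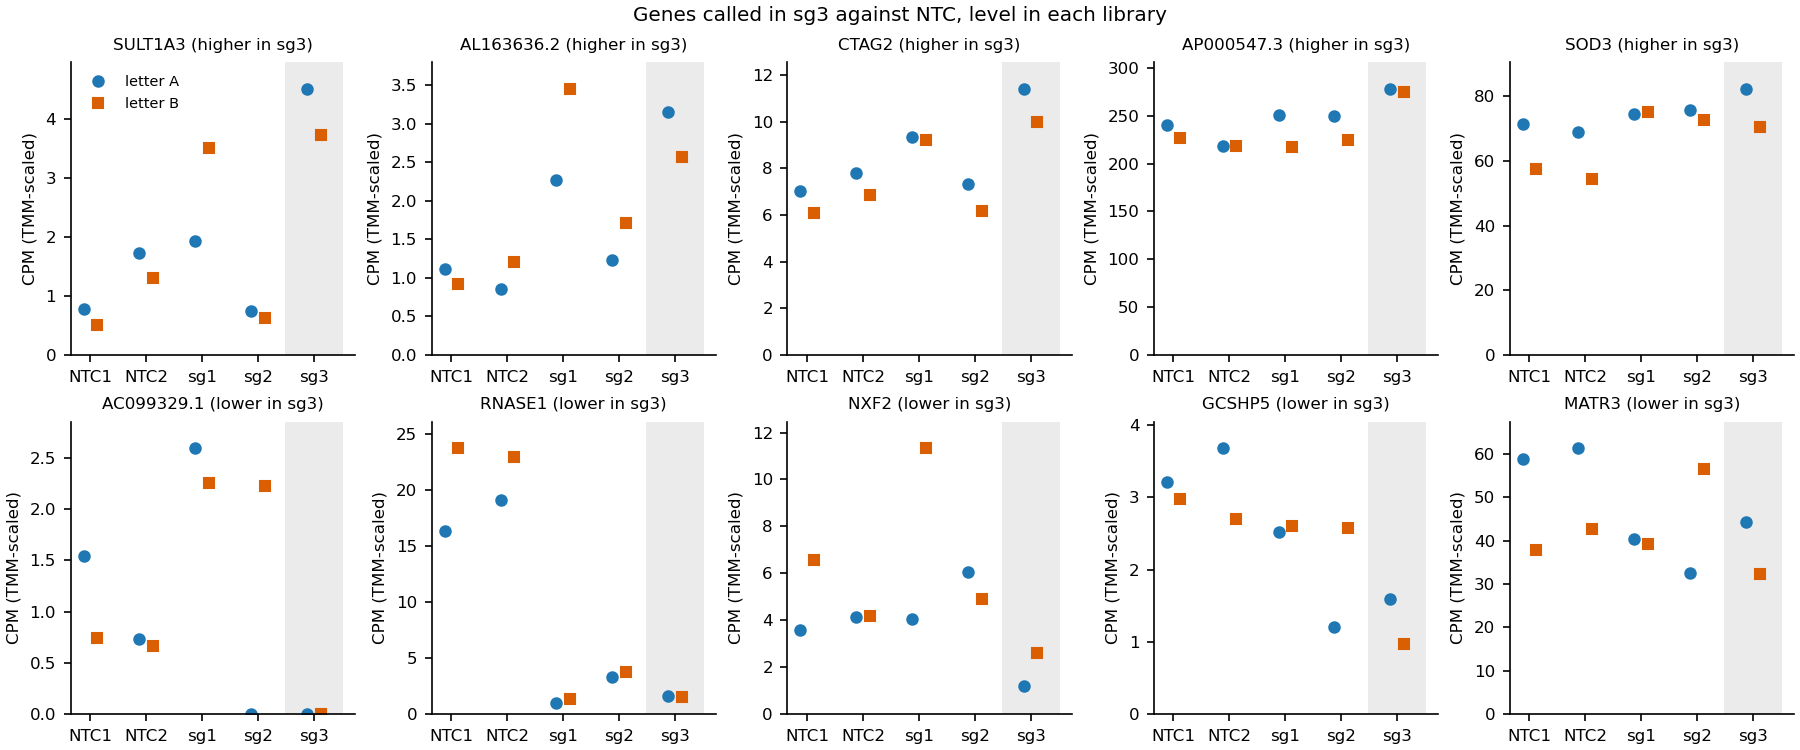
Level in CPM (TMM-scaled, axes from 0) of each of the 10 genes called between sg3 and NTC, 1 point per library, circles for letter A and squares for letter B, with sg3 shaded. RNASE1 stands at 1.66 and 1.57 CPM in sg3 against 16.4 to 23.7 CPM in NTC, whereas SOD3 and MATR3 overlap between sg3 and NTC once the letters are pooled.

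SULT1A3 had the largest rise among the called genes. It encodes a sulfotransferase of dopamine and other catecholamines, on chromosome 16 from 30199228 to 30204310 on the plus strand. Its level was 0.78 and 0.50 CPM in NTC1, 1.72 and 1.31 CPM in NTC2, and 4.51 and 3.72 CPM in sg3, for A and B in that order. Both sg3 libraries were the highest of the 6, and NTC2 lay above NTC1. On the log2 scale SULT1A3 was higher by 1.94 (SE 0.30, edgeR adjusted p = 0.0266). It was 2.68 (SE 0.32, adjusted p = 0.00802) against NTC1 and 1.44 (SE 0.29, adjusted p = 0.143) against NTC2, with 1.24 between the control lines. The sg1 libraries held 1.94 and 3.51 CPM of SULT1A3, and the sg2 libraries 0.74 and 0.63 CPM. For sg3 minus sg1 the log2 difference was 0.59 (SE 0.28).

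SULT1A3 has a near-identical copy on the same chromosome, SULT1A4, and each has a read-through gene with SLX1A or SLX1B, so the reads of the 4 genes cannot be told apart with confidence. SULT1A4 was at 12.3 to 13.5 CPM in NTC and at 11.1 and 10.0 CPM in sg3, a log2 difference of -0.31 (edgeR adjusted p = 0.237), opposite in sign to SULT1A3. The 4 genes summed held 15.1 to 16.1 CPM in NTC and 17.4 and 15.4 CPM in sg3. The log2 difference of the sum was 0.07 (SE 0.07, 95% interval -0.08 to 0.21, adjusted p = 0.852). The total of the genes that share reads thus did not pass, and the rise assigned to SULT1A3 is uncertain.

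NXF2, a testis-expressed member of the nuclear RNA export factor family on chromosome X from 102247161 to 102326719, gave a like picture in the other direction. It held 3.57 and 6.58 CPM in NTC1, 4.13 and 4.20 CPM in NTC2, and 1.19 and 2.60 CPM in sg3. The fitted log2 fold change was -1.32 (SE 0.21, edgeR adjusted p = 0.0339). Its near-identical copy NXF2B held 2.23 to 5.24 CPM in NTC and 8.32 and 7.80 CPM in sg3, a log2 difference of 1.01 (adjusted p = 0.0861). NXF2 and NXF2B summed held 8.30 to 9.37 CPM in NTC and 9.51 and 10.4 CPM in sg3, and the direction turned, to 0.19 (95% interval 0.00 to 0.38, adjusted p = 0.641). In sg1 library B the split was more extreme still, with 11.3 CPM assigned to NXF2 and 0.05 CPM to NXF2B.

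MATR3 encodes matrin 3, an RNA-binding protein of the nuclear matrix, and the annotation holds overlapping genes under that symbol on chromosome 5. The one that fell, ENSG00000280987, spans 139273752 to 139331671 on the plus strand. It held 58.8 and 37.7 CPM in NTC1, 61.3 and 42.6 CPM in NTC2, and 44.4 and 32.4 CPM in sg3, lower than both controls within each letter. The log2 fold change was -0.38 (SE 0.06, edgeR adjusted p = 0.0224). The other MATR3 gene, ENSG00000015479, carried most of the reads, at 316 to 417 CPM in NTC and 337 and 383 CPM in sg3. Summed, the log2 difference was -0.07 (SE 0.04, adjusted p = 0.713). In the other guide lines ENSG00000280987 was at 40.4 and 39.1 CPM (sg1) and 32.5 and 56.4 CPM (sg2).

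GCSHP5 is a processed pseudogene of GCSH, which encodes the H protein of the glycine cleavage system, on chromosome 1 from 168055901 to 168056422. It held 2.71 to 3.68 CPM in NTC and 1.59 and 0.98 CPM in sg3. The log2 fold change was -1.31 (SE 0.19, edgeR adjusted p = 0.0224), and both sg3 libraries were below all 4 NTC libraries. The sg1 libraries held 2.52 and 2.61 CPM of GCSHP5, and the sg2 libraries 1.21 and 2.58 CPM. GCSH itself was at 64.5 to 74.7 CPM in NTC and 73.1 and 71.8 CPM in sg3, and the sum of both differed by 0.00 on the log2 scale (95% interval -0.11 to 0.10, adjusted p = 0.994).

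AL163636.2, a protein-coding gene model on chromosome 14 from 20684587 to 20700576 on the plus strand, overlaps RNASE4 and ANG, which encode other secreted ribonucleases, on the same strand. Its level was 1.12 and 0.92 CPM in NTC1, 0.85 and 1.21 CPM in NTC2, and 3.15 and 2.57 CPM in sg3, with no overlap. On the log2 scale it was higher by 1.48 (SE 0.21, edgeR adjusted p = 0.0224). The sg1 libraries held 2.28 and 3.45 CPM, a log2 difference of 0.02 (SE 0.25) for sg3 minus sg1, and the sg2 libraries 1.23 and 1.71 CPM. RNASE4 was at 8.99 to 11.4 CPM in NTC and 7.55 and 9.92 CPM in sg3 (log2 difference -0.22, adjusted p = 0.671). ANG, or angiogenin, was at 3.80 to 5.13 CPM and 4.49 and 4.15 CPM (-0.04, adjusted p = 0.959). The 3 genes summed differed by 0.03 (SE 0.08, 95% interval -0.15 to 0.21, adjusted p = 0.948).

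AC099329.1 is annotated as antisense, on chromosome 3 from 42785087 to 42852428, and overlaps HIGD1A, a mitochondrial protein gene, on the same strand. It had 28 to 65 counts in the NTC libraries, 158 in all, and 0 counts in both sg3 libraries. With a floor of 3 counts over the sg3 group its CPM was at least 25.9-fold lower in sg3 (edgeR adjusted p = 0.0138). Library A of sg2 also had 0 counts, while sg2 B had 95 and the sg1 libraries 107 and 88. HIGD1A was at 136 to 160 CPM in NTC and 147 and 133 CPM in sg3. Summed with HIGD1A and AC006059.2, the log2 difference was -0.12 (SE 0.04, adjusted p = 0.532). Genes on the opposite strand were not part of that sum, although the protocol does not mark strand. AC099329.1 averaged under 1 CPM, outside the rule for named genes, and was named after its values were seen.

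**Figure D2:**
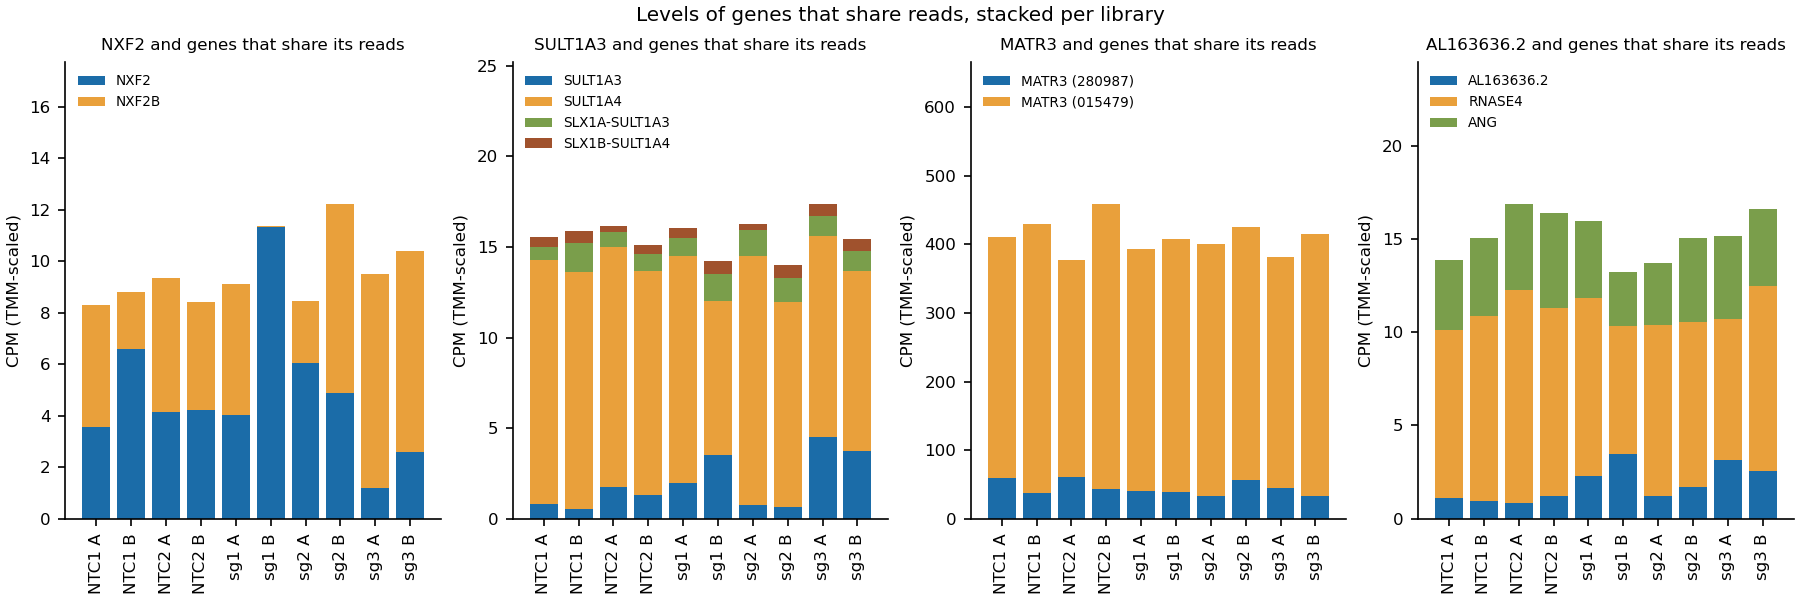
Levels in CPM (TMM-scaled, axes from 0) of genes that share reads, stacked per library for NXF2 and NXF2B, the SULT1A3 group, the MATR3 genes (labelled by the end of their identifiers) and AL163636.2 with RNASE4 and ANG. The NXF2 segment is at 1.19 and 2.60 CPM in sg3 while the full height of the NXF2 stack stays between 8.30 and 10.4 CPM in the 6 NTC and sg3 libraries.

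CTAG2 rose without such a partner among its paralogs, the only genes summed with it. It encodes a cancer-testis antigen, a protein normally made in testis and switched on in some tumours, and lies on chromosome X (minus strand) from 154651972 to 154653579. It held 7.04 and 6.10 CPM in NTC1, 7.81 and 6.86 CPM in NTC2, and 11.4 and 9.99 CPM in sg3. Both sg3 libraries were above all 4 NTC libraries. A log2 fold change of 0.62 was fitted (SE 0.09, edgeR adjusted p = 0.0224), a 1.54-fold rise, with 0.62 from A libraries alone and 0.63 from B libraries alone. Its paralogs CTAG1A and CTAG1B had at most 5 counts in any NTC or sg3 library, and the sum of the 3 genes gave 0.62 (adjusted p = 0.0362). Against single control lines the difference was 0.70 (SE 0.10, adjusted p = 0.0218) for NTC1 and 0.54 (SE 0.10, adjusted p = 0.0976) for NTC2, with 0.16 between NTC2 and NTC1. The levels in sg1 were 9.35 and 9.21 CPM and those in sg2 7.34 and 6.16 CPM.

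AP000547.3, a long intergenic non-coding RNA on chromosome 22 from 16601911 to 16615111 on the plus strand, was the most abundant of the called genes. It held 240 and 227 CPM in NTC1, 219 and 218 CPM in NTC2, and 278 and 275 CPM in sg3. The log2 fold change was 0.29 (SE 0.04, edgeR adjusted p = 0.0224), a 1.22-fold rise seen in both letters, at 0.28 and 0.30. It overlaps TPTEP1 on the same strand, a transcribed pseudogene that was at 15.5 to 23.0 CPM in NTC and 25.0 and 18.3 CPM in sg3. Both summed gave 0.28 (SE 0.04, adjusted p = 0.0362). The sg1 libraries held 251 and 217 CPM and the sg2 libraries 250 and 224 CPM.

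SOD3 encodes the extracellular superoxide dismutase and lies on chromosome 4 from 24789912 to 24800842. It held 71.4 and 57.4 CPM in NTC1, 69.0 and 54.5 CPM in NTC2, and 82.2 and 70.4 CPM in sg3. Within each letter sg3 was above both NTC lines, although sg3 B lay below NTC1 A. The rise was 1.21-fold, a log2 fold change of 0.28 (SE 0.04, edgeR adjusted p = 0.0266). The sg1 libraries, at 74.6 and 75.0 CPM, and the sg2 libraries, at 75.6 and 72.7 CPM, stood near those of sg3.

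Apart from RNASE1, none of these calls held in every alternative. Without the letter as a block RNASE1 was the only call, and the 9 other genes had adjusted p from 0.437 to 1.00. When genes that share reads were summed, an alternative chosen after the data were seen, only RNASE1, CTAG2 and AP000547.3 passed. The call of CTAG2 was lost without NTC1 A, sg3 A or sg3 B, and its adjusted p ranged from 1.33e-06 to 0.874 over 14 settings. The call of AP000547.3 was lost without NTC2 B, sg3 A or sg3 B (adjusted p 1.03e-08 to 0.874). SULT1A3 was lost without NTC1 A, sg3 A or sg3 B, and AL163636.2 without these or NTC2 A. NXF2 was lost without either NTC1 library, NTC2 A or either sg3 library. GCSHP5, MATR3 and SOD3 were lost when any library other than NTC1 B was left out. AC099329.1 was lost without sg3 A. In the fit of all 10 libraries with 5 line means SULT1A3, AL163636.2, CTAG2 and AP000547.3 remained called beside RNASE1, the other 5 did not, and H19 was added at 0.29 (adjusted p = 0.0260). With 1 sg3 library left, that library is assumed to vary like the controls.

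The fold changes of sg3 also followed base composition. Over 9523 genes at 10 CPM or more with a known GC content, the rank correlation of the log2 fold change with GC content was 0.49, as a description across genes, which share the same libraries. It was 0.32 in A libraries, 0.49 in B libraries and 0.07 for NTC2 against NTC1. The median log2 fold change ran from -0.04 in the genes of lowest GC content to 0.04 in those of highest, with the genes cut at the quartiles. With an offset for GC content the call of SOD3 was lost, at 0.22 with an adjusted p of 0.0826, and CTAG2 and AP000547.3 passed at 0.57 and 0.29. The part of base composition in the smaller differences was not tested beyond that offset.

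The next genes by p did not pass and were named after their values were seen. TNS4, a tensin of focal adhesions, was at 550 to 661 CPM in NTC and 767 and 676 CPM in sg3, with no overlap, and its log2 difference was 0.23 (edgeR adjusted p = 0.0616). RERE, a nuclear corepressor, was at 0.24 (adjusted p = 0.0616). OLFM4, an olfactomedin marker of intestinal stem cells, was at 246 and 610 CPM in NTC1, 261 and 677 CPM in NTC2, and 221 and 497 CPM in sg3. Among the NTC and sg3 libraries the letters differed far more than the lines in OLFM4. The sg3 value was lower than both controls within each letter, with a log2 difference of -0.29 (edgeR adjusted p = 0.0854). The sg1 libraries held 185 and 255 CPM of OLFM4 and the sg2 libraries 197 and 382 CPM, lower than sg3 within each letter. CCND2, or cyclin D2, was at 7.22 to 9.93 CPM in NTC and 12.8 and 12.7 CPM in sg3 (0.52, adjusted p = 0.0862). MUC17, a transmembrane mucin, was at 7.34 to 10.5 CPM and 13.6 and 10.9 CPM (0.44, adjusted p = 0.122). The genes EVPL, FXYD5 and ZYX had positive differences of 0.18 to 0.26, with adjusted p from 0.0862 to 0.107.

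The distance between the control lines sets the scale for these differences. Genes were taken here by their mean over all 10 libraries. Among 13036 genes at 1 CPM or more, the SD of the log2 fold change was 0.20 for sg3 against NTC1, 0.21 for sg3 against NTC2, and 0.22 for NTC2 against NTC1. The number of genes beyond 1.5-fold was 98, 98 and 97 in that order. At 10 CPM or more, over 9527 genes, the SD was 0.07, 0.09 and 0.07. By the SD at 1 CPM or more, sg3 was thus about as far from each control line as the control lines were from each other. The scaled median absolute deviation, which a few extreme genes hardly move, was 0.079, 0.091 and 0.077 there, in the same order. By that measure, and by the SD at 10 CPM or more, sg3 lay somewhat farther from NTC2 than NTC1 did. Against sg1 and sg2 the SD at 1 CPM or more was 0.17 and 0.16, with 99 and 87 genes beyond 1.5-fold.

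In tests of single pairs of lines over 16411 genes, 4 genes passed between sg3 and NTC1 (0.0244%), 2 between sg3 and NTC2 (0.0122%) and 2 between NTC2 and NTC1 (0.0122%). Without adjustment, 867 (5.28%), 1342 (8.18%) and 831 (5.06%) had a p under 0.05. RNASE1 was the only gene called in sg3 against both control lines, lower in each, and no gene was called higher against both (edgeR). SULT1A3, CTAG2 and AC000120.3 were the other calls against NTC1. AC000120.3 had 0 counts in both NTC1 libraries, 60 and 52 in NTC2 and 48 and 71 in sg3, and it was likewise called between NTC2 and NTC1. The other call between NTC2 and NTC1 was U2AF1, a splicing factor gene with a near-identical copy in this build, at -1.12 (SE 0.15, adjusted p = 0.0377). None of the 10 genes called between sg3 and NTC was called between the control lines, where 0.0122% of all genes were. The fit of sg3 against NTC counts the difference between the control lines in its spread, so no conclusion is drawn from that absence.

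H19, an imprinted long non-coding RNA, was the other call against NTC2, at 0.43 (SE 0.05, edgeR adjusted p = 0.00333). It held 439 and 540 CPM in NTC1, 352 and 455 CPM in NTC2, and 502 and 577 CPM in sg3. NTC1 lay between NTC2 and sg3 within each letter. Against both controls together the difference was 0.28 (SE 0.08, adjusted p = 0.364), with -0.28 for NTC2 against NTC1.

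**Figure D3:**
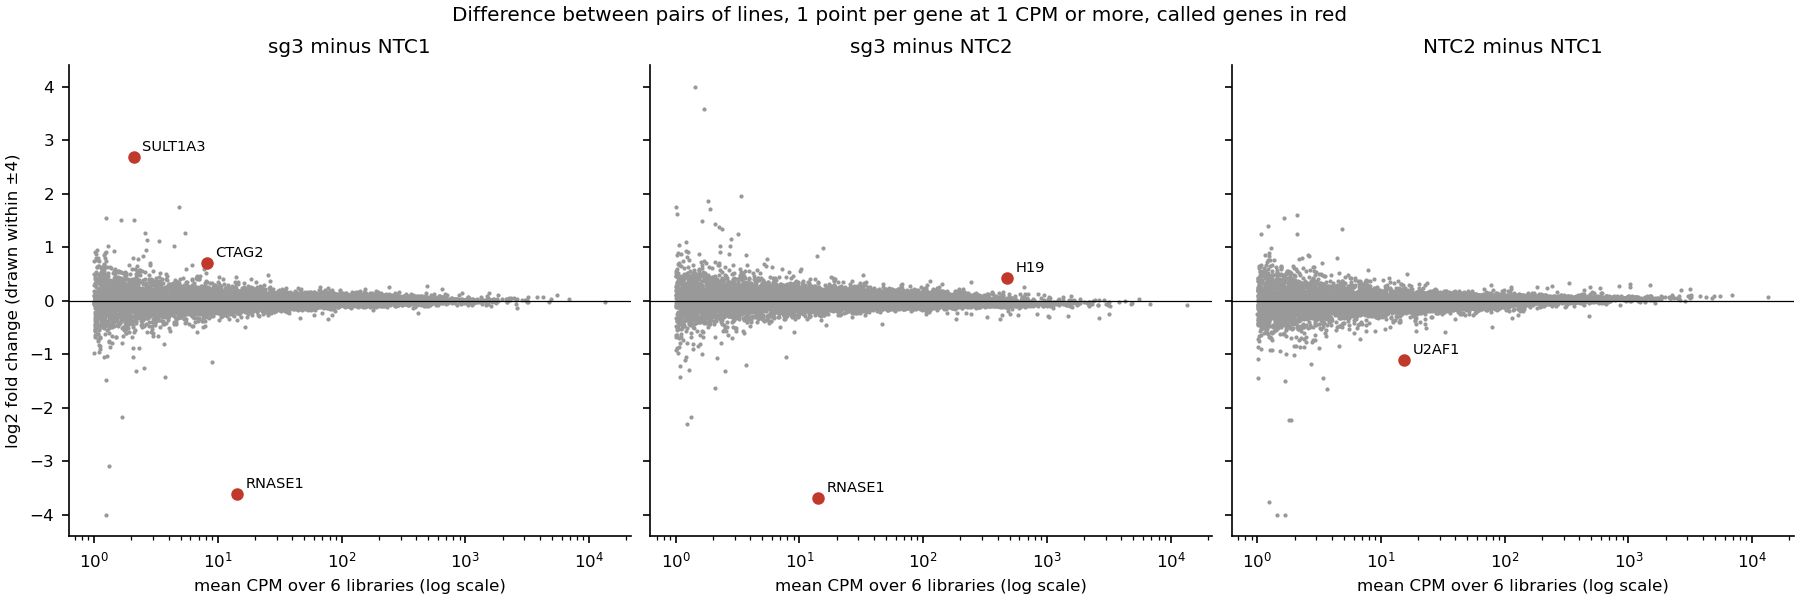
Log2 fold change (drawn within ±4) against mean CPM over the 6 sg3 and NTC libraries (log scale) for sg3 minus NTC1, sg3 minus NTC2 and NTC2 minus NTC1, 1 point per gene at 1 CPM or more, with called genes in red. RNASE1 stands apart at -3.62 and -3.70, and AC000120.3 is not drawn because its mean over the 6 libraries is under 1 CPM. The SDs given in the text (0.20, 0.21 and 0.22) cover genes at 1 CPM or more by the mean of all 10 libraries. That set includes AC000120.3.

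Against the other guide lines sg3 differed in few genes. Between sg3 and sg1 edgeR called 0 genes (0%), with 670 at an unadjusted p under 0.05 (4.08%), and DESeq2 called 4. Between sg3 and sg2, 6 genes passed (0.0366%), with 628 unadjusted (3.83%). They were SULT1A3 at 2.58, CTAG2 at 0.66, H19 at 0.32 and PLA2G2A at 0.30, higher in sg3, and RNASE1 at -1.13 and AC005538.2 at -0.94, lower. PLA2G2A, a secreted phospholipase with antibacterial activity, was at 210 and 325 CPM in sg3 and 179 and 252 CPM in sg2, while NTC1 held 196 and 300 CPM and NTC2 held 228 and 324 CPM. Within letter A the sg3 level of PLA2G2A lay between the controls, and within letter B it was level with NTC2. No gene was called between sg3 and both other guide lines in the same direction.

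The neighbours of RNASE1 were described as a group. Of 72 genes annotated within 500 kb, 20 were tested and AL163636.2, 101 kb away, was the only one called, beside 0.0625% of all genes tested. It and 2 others, ZNF219 at 0.13 and TEP1 at 0.15, had an unadjusted p under 0.05, beside 7.77% of all genes. The nearest tested neighbour, RNASE6, another RNase A relative 18.8 kb away, gave 0.02 with a wide error (SE 0.48). The purine enzyme gene PNP was at -0.02 (SE 0.04) and APEX1, a DNA repair enzyme gene, at -0.01 (SE 0.04). HNRNPC, an RNA-binding protein gene, was at -0.04 (SE 0.04).

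**Figure D4:**
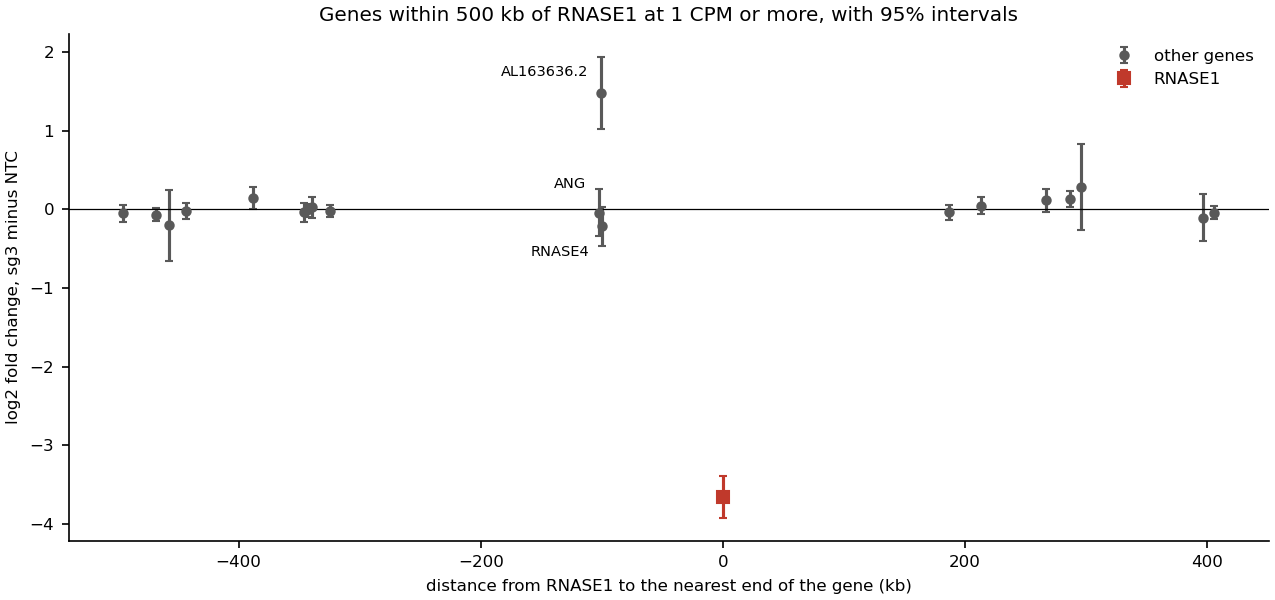
Log2 fold change of sg3 minus NTC, with 95% intervals, for genes within 500 kb of RNASE1 at 1 CPM or more, against the distance in kb from RNASE1 to the nearest end of each gene. RNASE1 stands at -3.66 and AL163636.2 at 1.48, and the other genes lie near 0, from -0.22 (RNASE4) upward.

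The pathway lists gave 2 called genes besides RNASE1. Over 38 lists, 789 listed genes apart from RNASE1 were measured, and SOD3 in the list of NRF2 and glutathione genes and CTAG2 among cancer-testis antigens passed, where 0.0625% of all genes tested did. Before adjustment 53 were higher and 45 lower at a p under 0.05, 12.4% of the listed genes, beside 7.77% of all genes tested. The lists were written with earlier results of these data known. That share was not computed for all genes at 1 CPM or more, so no conclusion is drawn from the difference. Members named beyond the 3 most abundant of a list were named after their values were seen. For 708 of the 789 (89.7%) the 95% interval lay within 1.5-fold of the controls, beside 11990 of all 16006 genes tested (74.9%) and 11990 of the 13039 at 1 CPM or more. The median log2 fold change over all genes tested was -0.0032, with 7779 positive and 8227 negative differences, and these values are the reference for the lists that follow.

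The 2 lists of RNA-degrading enzymes and their partners held no called gene other than RNASE1. The list of RNase A relatives, RNASET2 and the inhibitor had 6 tested members, of which only RNASE1 passed. RNH1, the inhibitor that binds RNASE1, was at 161 CPM in NTC and 166 CPM in sg3, a log2 difference of 0.05 (SE 0.04). RNASET2, a lysosomal ribonuclease, was at 26.5 and 24.3 CPM (-0.13, unadjusted p = 0.0336, adjusted p = 0.614). None of 39 RNA decay and ribonuclease genes passed, with a median of -0.013 and a range of -0.13 to 0.17. Its 3 most abundant members were PABPC1, the poly(A)-binding protein (0.02, SE 0.04), CNOT1, the scaffold of the deadenylase complex (-0.02, SE 0.04), and DDX6, a helicase of P-bodies (0.01, SE 0.04). For all 39 the interval lay within 1.5-fold.

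Genes that respond to RNA in the cytosol gave no call either. None of 17 RNA and DNA sensors passed, with a median of 0.012. DHX9 was at -0.04 (SE 0.04), the editing enzyme ADAR at 0.01 (SE 0.03) and TRIM25 at -0.04 (SE 0.04). None of 38 interferon-stimulated genes passed, with a median of 0.0044, and their intervals lay within 1.5-fold for 21. IFITM3, an interferon-induced membrane protein, was at 170 CPM in NTC and 178 CPM in sg3 (0.07, SE 0.04). Among 20 genes of MHC class I presentation the median was -0.0089, and B2M, its light chain, was at -0.07 (SE 0.04). Of the 20, 4 were higher and 0 lower at an unadjusted p under 0.05, beside 4.47% and 3.29% of all genes tested. TAPBP, the peptide-loading protein tapasin, had the smallest p of that list, at 136 CPM in NTC and 153 CPM in sg3 (0.17, SE 0.04, unadjusted p = 0.000385, adjusted p = 0.187). Among 25 targets of TNF and NF-kB the median was 0.028 with no call.

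Lineage genes of the gut epithelium had no call. The 27 mucus and goblet cell genes had a median of -0.035, with 12 positive and 15 negative differences. Of the 27, 2 were higher and 5 lower at an unadjusted p under 0.05, beside 4.47% and 3.29% of all genes tested. AGR2, a disulfide isomerase for mucins, was at 610 CPM in NTC and 581 CPM in sg3 (-0.07, SE 0.05), MUC6 was at -0.01 (SE 0.04) and MUC13 at 0.00 (SE 0.04). MUC2, the main gel-forming mucin of the colon, was at 110 and 96.9 CPM (-0.17, unadjusted p = 0.0212, adjusted p = 0.575). The goblet list's median was 0.089 between the control lines. The 25 stem cell and Wnt target genes had a median of 0.016, and CCND1, or cyclin D1, was at 0.03 (SE 0.04) and EPHB3 at -0.01 (SE 0.04). The 11 enterocyte genes had a median of 0.014, with villin (VIL1) at 0.01 (SE 0.04). The 30 genes of epithelial junctions and keratins had a median of 0.022, with 24 of 30 positive. KRT8 was at 0.01 (SE 0.04), and JUP, or plakoglobin, was at 261 CPM in NTC and 287 CPM in sg3 (0.14, unadjusted p = 0.00152, adjusted p = 0.304).

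Growth, stress and metabolism lists were without a call apart from SOD3. The list of NRF2 and glutathione genes, 31 tested, had a median of -0.0057, with 13 positive and 18 negative differences. PRDX1, a peroxiredoxin, was at -0.04 (SE 0.04) and GSTP1, a glutathione transferase, at -0.01 (SE 0.04). The median was -0.014 for 29 p53 targets, where CDKN1A, the cell cycle inhibitor p21, was at 0.04 (SE 0.04). It was 0.018 for 34 MAPK feedback and immediate early genes. AREG, an EGF receptor ligand in that list, was at 71.8 CPM in NTC and 63.0 CPM in sg3 (-0.19, unadjusted p = 0.00233, adjusted p = 0.356). The medians were -0.016 for 30 unfolded protein and integrated stress genes, where HSPA5, the chaperone BiP, was at -0.04 (SE 0.04), and -0.013 for 16 heat shock genes. The lists of S phase (median -0.019) and mitosis (median -0.013) covered 30 genes each, and every interval in both lay within 1.5-fold. Among 30 genes of cholesterol and fatty acid synthesis the median was 0.031. FASN, the fatty acid synthase, was at 1520 CPM in NTC and 1651 CPM in sg3 (0.12, unadjusted p = 0.0125, adjusted p = 0.538).

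Transcripts of the mitochondrial genome had the median farthest from 0 among lists of 10 or more genes. Of 13 tested, 12 had negative differences, with a median of -0.14, and none passed, with 4 lower at an unadjusted p under 0.05, beside 3.29% lower over all genes tested. MT-CO1, a subunit of cytochrome oxidase, was at 3275 CPM in NTC and 2973 CPM in sg3 (-0.14, SE 0.07). MT-ND4L, a complex I subunit, was at 193 and 165 CPM (-0.23, SE 0.07, unadjusted p = 0.00693, adjusted p = 0.465). The same list had a median of 0.25 for NTC2 against NTC1, a larger shift between the control lines than between sg3 and NTC. The mitochondrial share of counts in A and B was 1.30% and 1.25% in NTC1, 1.54% and 1.39% in NTC2, and 1.25% and 1.22% in sg3. The sg3 share was thus below that of both NTC lines within each letter, nearer to NTC1 than to NTC2. In sg1 it was 1.17% and 1.42% and in sg2 1.20% and 1.29%, so that in letter A both other guide lines lay below sg3.

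Ribosomal and respiratory genes of the nucleus showed small negative medians. Of 77 cytosolic ribosomal protein genes 62 had negative differences, with a median of -0.025 and no call, and the median between the control lines was 0.056. RPS2 was at 0.02 (SE 0.05) and RPLP0 at -0.04 (SE 0.04). The A libraries alone gave a median of -0.067 and the B libraries alone 0.012, so the sign depended on the letter. Of 32 nuclear genes of oxidative phosphorylation 26 had negative differences, with a median of -0.033, set against 0.050 between the control lines. The 31 genes of rRNA synthesis and the nucleolus had a median of -0.029, and NPM1, or nucleophosmin, was at -0.08 (SE 0.05).

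Cancer-testis antigens had the highest median of the lists with 10 or more genes. Of 11 tested, 9 had positive differences, with a median of 0.10, and CTAG2 passed; over all genes tested 7779 of 16006 were positive and 0.0312% were called higher. Their median between NTC2 and NTC1 was 0.12. The abundant MAGEA3 was at 201 CPM in both groups (0.00, SE 0.04) and MAGEA6 at 125 and 128 CPM (0.03, SE 0.04). Among 10 imprinted genes the median was 0.056. Of the 10, 3 were higher and 2 lower at an unadjusted p under 0.05, beside 4.47% and 3.29% of all genes tested. PEG10, which derives from a retrotransposon, was at 0.72 CPM in NTC and 1.65 CPM in sg3 (1.20, SE 0.29, unadjusted p = 0.00121, adjusted p = 0.277).

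**Figure D5:**
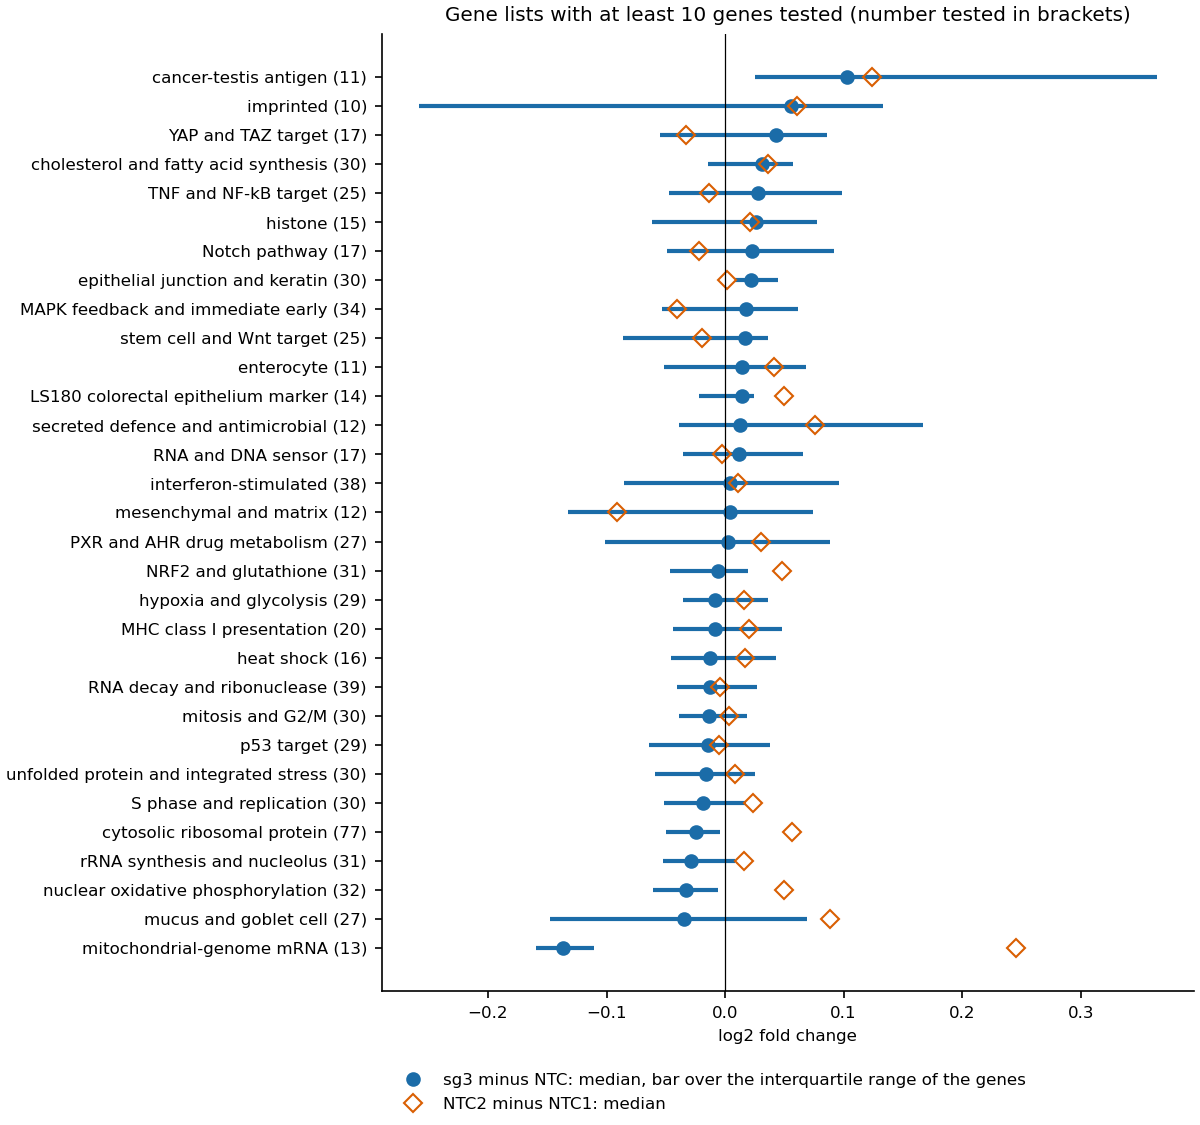
Median log2 fold change of sg3 minus NTC (filled circles, bars over the interquartile range of the genes) and median of NTC2 minus NTC1 (open diamonds) for lists with at least 10 genes tested, with the number tested in brackets. The mitochondrial mRNAs stand lowest, at -0.14, with 0.25 between the control lines, and cancer-testis antigens highest, at 0.10, with 0.12 between the control lines.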

How the data were processed

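Polyadenylated RNA was sequenced from random-primed cDNA by a protocol that does not mark strand, per the labels' protocols. The authors deposited expected counts per gene in 1 table, estimated with RSEM per its name. The submitters' processing notes name hg38, CASAVA 1.8.2, TopHat2 2.0.8 and FastQC 0.11.2, without their roles. RSEM shares out reads among the genes they fit, so genes that overlap or have copies have uncertain counts. Of overlapping genes, the summed groups held only those on the same strand, so sharing across strands was not examined. Of the values for 58870 genes, 7.12% were not whole, and all were rounded. Positions come from GENCODE 29 (58597 identifiers matched) and promoter sequences from RefSeq.

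The 6 sg3 and NTC libraries were fitted with arm and letter in edgeR 4.0.16 under R 4.3.3 (glmQLFit, TMM, filterByExpr, two-sided), so the difference between NTC1 and NTC2 counts in the spread. Pairs of lines were compared in a fit of all 10 libraries. Called means a Benjamini-Hochberg adjusted p under 0.05 over all genes tested. Among abundant genes the NTC1, NTC2 and sg3 lines shared a difference between letters. Deviations of same-lettered libraries from line means correlated at 0.680 to 0.776 over 9527 genes at 10 CPM or more. Over all 16006 genes tested the correlations were only 0.083 to 0.179. Libraries A and B of a line did not repeat each other, with 10.8 to 23.9 times the sampling variance between them. Floors cover counting error only.

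Named genes were RNASE1, up to 12 called genes per direction at 1 CPM or more with sg3 on one side of both controls within each letter, up to 4 called members per list or the 3 most abundant without a call, called neighbours within 500 kb, and genes beyond both control lines. Genes and lists were chosen with earlier results of these data known. Alternatives were DESeq2 1.42.0, other filters, normalization and blocks, a GC offset, libraries left out and summed gene families. The fit was also run on simulated counts with 1 fixed dispersion and no difference between letters or between control lines. That run therefore does not show how the fit behaves on these libraries.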

Additional observations from a re-analysis of the deposited data

Results flagged for a closer look

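For AC099329.1, the NTC1 A library stood apart from the other NTC libraries, at 1.55 CPM, while the others were at 0.66 to 0.74 CPM. It was 1 of 10 called genes examined in this way, and chance alone sets apart about 1 in 20 such groups.

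For 6 genes, sg3 and sg2 differed from each other in the fit of all 10 libraries (edgeR, adjusted p under 0.05), although both carry guides against RNASE1. The log2 differences of sg3 minus sg2 were 2.58 for SULT1A3, 0.66 for CTAG2, 0.32 for H19, 0.30 for PLA2G2A, -1.13 for RNASE1 and -0.94 for AC005538.2. SULT1A3 shares reads with SULT1A4, so its difference has the uncertainty described for that group. AC005538.2 was at 5.26 and 6.58 CPM in sg3, 8.86 and 14.1 CPM in sg2 and 4.72 to 11.0 CPM in the NTC libraries.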

How the results depend on the processing

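RNASE1 was called in 14 of 14 settings, from -3.89 to -3.42. The counts of genes higher and lower in sg3, 5 and 5, moved to 0 and 1 without the letter as a block, 14 and 9 in DESeq2 (its 23 calls include all 10 of edgeR), 89 and 58 without a filter, 11 and 3 at 5 CPM or more, and 2 and 1 with genes that share reads summed; 5 line means over all 10 libraries gave 5 and 1. Leaving out 1 library at a time gave 1 to 10 higher, fewest without NTC1 A or sg3 B and most without NTC1 B, and 3 to 8 lower. The 2 calls between NTC2 and NTC1 became 0 without the block, 7 in DESeq2, 144 without a filter, 1 at 5 CPM or more, 0 with the GC offset and 1 to 5 with 1 library left out. Genes beyond both control lines, 0 higher and 1 lower, became 2 higher in DESeq2, 27 and 28 without a filter, and 0 to 1 higher with 1 library left out. Genes beyond both other guide lines, 0 in each direction, became 1 higher in DESeq2, 21 and 20 without a filter, and 0 to 1 lower with 1 library left out. NXF2 turned to 0.19 when summed with NXF2B. DESeq2 size factors in edgeR kept both counts at 5. The cause of the other shifts was not tested. With 2 libraries of 1 line, genes of low count are limited most: 11990 of 13039 genes at 1 CPM or more had intervals within 1.5-fold, and the median SE there was 0.055.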
